A study of Homo sapiens with 2 samples.

Results

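The mitochondrial ribosomal protein genes are the nuclear genes whose symbols begin with MRPL or MRPS and a digit, and they were examined in peak lists from PLC8024, an established line of human liver cancer cells. Members were taken by symbol from the rows that the authors' annotation gives as protein-coding, in every annotation class. By that rule 72 genes were named in either list, 63 of them in the drug list and 69 in the control list, among 13982 protein-coding gene names in all, 11385 in the drug list and 13108 in the control list. RefSeq holds 77 protein-coding symbols of this pattern, and together with MRPS36 they made 78 genes, so that 6 genes had no peak named for them in either list (MRPL2, MRPL23, MRPL47, MRPL9, MRPS18B and MRPS34). RefSeq now calls MRPS36 KGD4, a subunit of 2-oxoglutarate dehydrogenase rather than of the ribosome, and it was kept because its symbol in the files matched the rule.

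Mitochondria carry their own ribosome, which translates the few proteins encoded by mitochondrial DNA, all of them subunits of the respiratory chain and the ATP synthase. Its RNAs come from mitochondrial DNA, while every one of its proteins is encoded in the nucleus, made in the cytosol and imported. Most L proteins build the large subunit, which holds the peptidyl transferase centre, and most S proteins build the small subunit, which reads the messenger RNA. Some have counterparts in bacterial ribosomes and others are found only in mitochondria.

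The assay was CUT&Tag, in which an antibody bound in permeable nuclei steers a transposase to a chromatin protein or mark, and the fragments it cuts are amplified and sequenced. The drug group was 1 library of PLC8024 cells exposed for 6 hours to 10 nM of a drug, and the control group was 1 library of PLC8024 cells with the treatment label control. Neither the drug nor the primary antibody is named in the labels, and the title of the series puts the kinesin KIF11, a motor of the mitotic spindle, at its centre. The IgG and Pol II groups that the design text describes were not analysed here.

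Each group held 1 library, so no test between them was possible, no p-value is given, and every difference stands without a replicate check. The drug list had 29283 peaks and the control list 49854, so the drug list was 58.7% as long. The files hold no read totals, so depth is unknown, and fewer reads in the drug library cannot be told apart from less signal in drug-treated cells. Each peak has a score given by the authors, a whole number that grows with the peak caller's certainty, with a lowest value of 13 in both lists. Scores were used only to describe or order peaks within their own list. The promoter peak of KIF11 scored 59 in the drug list and 586 in the control list. As a check of the labelled cell type, promoter peaks were named for 4 of 10 liver genes in the drug list and 5 of 10 in the control list, and of the 5 liver genes with a start-site window HNF4A, CEBPA and SERPINA1 had a peak there in both lists and ALB and AFP in neither. They were named for 2 of 5 epithelial genes (KRT8 and KRT18) and for 0 of 5 genes each of blood and endothelial cells in both lists. Of 5 fibroblast genes, 1 had one in each list, COL1A2 in the drug list and PDGFRA in the control list. Over all 20056 RefSeq protein-coding genes such a peak was named for 35.2% in the drug list and 39.9% in the control list. The liver and epithelial counts lie near these shares, so they do not establish the cell type.

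Nearly every mitochondrial ribosomal protein gene had a peak at its start site in control cells, and most had one in drug-treated cells. The measure was a window from 250 bp before to 50 bp after each RefSeq start, which 70 of the 78 genes had and which counted a peak of any name or class. A gene with several windows counted once. In the drug list 60 of the 70 windows held a peak (85.7%, exact 95% interval 75.3 to 92.9), beside 47.2% of the 15843 RefSeq protein-coding genes with a window. In the control list 68 of the 70 held one (97.1%, interval 90.1 to 99.7), beside 57.1% of all protein-coding genes. The intervals cover counting error only. Of the 68 genes marked in control, 60 also had a drug peak (88.2%, interval 78.1 to 94.8), beside 82.0% of the 9050 protein-coding genes marked in control. No gene had a start-site peak in the drug list alone, and MRPL12 and MRPS34 had none in either list.

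**Figure D1:**
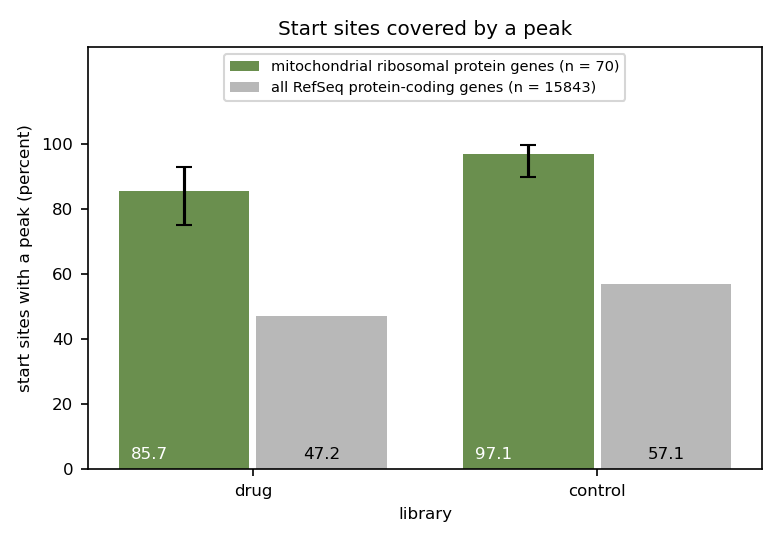
Percent of start-site windows that hold a peak, in the drug library and the control library, for the 70 mitochondrial ribosomal protein genes (green, with the exact 95% interval for counting error) and all 15843 RefSeq protein-coding genes (grey). The green bars reach 85.7% in the drug library and 97.1% in the control library, against grey bars of 47.2% and 57.1%.

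The genes without a window were MRPL10, MRPL13, MRPL15, MRPL2, MRPL21, MRPL23, MRPL35 and MRPS28. Their peaks were read from the names and gene spans instead. The promoter peak of MRPL15 scored 283 in the drug list and 801 in the control list, and that of MRPL13 scored 33 in the drug list and 220 in the control list. MRPS28 had a peak in its first exon, with a score of 280 in the drug list and 973 in the control list. The span of MRPL2 held a peak named for the neighbour KLC4 (216 in the drug list, 572 in the control list), and that of MRPL21 held a peak named for IGHMBP2 (130 in the drug list, 310 in the control list). MRPL23 had no peak over its span in either list. MRPL35 had 1 weak peak, scoring 15 in the drug list, in an intron 3528 bp from the start. MRPL15, MRPL13, MRPS28, MRPL2 and MRPL21 thus had a peak in both lists, MRPL10 in the control list alone.

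The authors' promoter-class names covered fewer of the genes. A promoter-class peak was named for 50 of the 78 genes in the drug list (64.1%, interval 52.4 to 74.7), beside 35.2% of 20056 RefSeq protein-coding genes. In the control list one was named for 51 of the 78 (65.4%, interval 53.8 to 75.8), beside 39.9%. All 50 drug promoter genes were overlapped by at least 1 bp of a control peak (100%, interval 92.9 to 100), beside 98.4% of all 7092 protein-coding genes with a drug promoter peak. Of the 51 control promoter genes, 44 were overlapped by a drug peak (86.3%, interval 73.7 to 94.3), beside 79.5% of all 8035 protein-coding genes with a control promoter peak. The 6 genes named with a promoter in the drug list only, MRPL16, MRPL38, MRPL42, MRPL51, MRPS18C and MRPS25, all had a control peak at the same place. For MRPL16, MRPL38, MRPL42 and MRPS25 the wider control peak was put in another annotation class, for MRPL51 it was named for NCAPD2, and for MRPS18C it was named for HELQ.

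The strongest start-site peaks belonged to proteins of both subunits. MRPL11, a protein at the base of the stalk where translation factors dock on the large subunit, had a peak scoring 407 in the drug list and 1478 in the control list, the highest control score at any of the 70 start sites. MRPL40, a large-subunit protein whose gene lies in the chromosome 22 region deleted in DiGeorge syndrome, scored 450 in the drug list and 1410 in the control list. MRPS24 of the small subunit scored 445 in the drug list and 1260 in the control list. These peaks sat at the top 5.55% (MRPL11), 4.50% (MRPL40) and 4.56% (MRPS24) of the drug list and the top 2.14%, 2.35% and 3.04% of the control list. MRPL38, found only in mitochondrial ribosomes, scored 467 in the drug list and 1189 in the control list. MRPS33 scored 346 in the drug list and 1150 in the control list. MRPL18, a counterpart of the bacterial protein that holds the small ribosomal RNA of the central protuberance, scored 362 in the drug list and 1122 in the control list. It was also the gene with the widest control peak, 1228 bp, which faced 2 drug peaks of 476 bp and 449 bp separated by a gap of 168 bp.

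The 150 bases before the start site of the 5 genes with the highest control promoter scores are printed here, to show what kind of sequence lay under the strongest peaks. They are RefSeq sequences of GRCh38.p14, read 5′ to 3′ along the gene, and capitals mark matches to any of the 6 short motifs described further on.
MRPL11 (chr11:66438849-66438998, minus strand): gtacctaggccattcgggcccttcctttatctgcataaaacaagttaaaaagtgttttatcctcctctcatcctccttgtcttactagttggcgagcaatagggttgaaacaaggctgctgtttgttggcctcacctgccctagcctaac
MRPL40 (chr22:19432395-19432544, plus strand): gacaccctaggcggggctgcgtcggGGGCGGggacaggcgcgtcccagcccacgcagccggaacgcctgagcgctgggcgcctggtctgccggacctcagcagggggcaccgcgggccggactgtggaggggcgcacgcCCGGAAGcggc
MRPS24 (chr7:43869518-43869667, minus strand): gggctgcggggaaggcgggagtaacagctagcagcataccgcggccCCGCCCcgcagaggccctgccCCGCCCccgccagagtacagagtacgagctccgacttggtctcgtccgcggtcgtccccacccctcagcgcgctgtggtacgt
MRPS33 (chr7:141014680-141014829, minus strand): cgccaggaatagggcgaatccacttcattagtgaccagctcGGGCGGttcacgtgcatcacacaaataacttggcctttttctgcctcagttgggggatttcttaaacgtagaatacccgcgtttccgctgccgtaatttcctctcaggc
MRPL18 (chr6:159789717-159789866, plus strand): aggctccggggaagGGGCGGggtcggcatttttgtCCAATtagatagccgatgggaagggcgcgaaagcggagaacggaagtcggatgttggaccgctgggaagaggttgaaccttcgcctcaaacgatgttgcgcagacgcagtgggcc
The MRPL11 stretch held none of the 6 motifs, whereas MRPL40 held an ETS match 11 bp and an SP1 match 125 bp before the start. MRPS24 held 2 SP1 matches, 104 and 83 bp before the start, MRPS33 held 1 at 109 bp, and MRPL18 held an SP1 match at 136 bp and an NFY match at 115 bp.

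Among the other large-subunit genes, MRPL49 had narrow peaks of 351 bp in the drug list and 364 bp in the control list, scoring 347 in the drug list and 1118 in the control list. MRPL48, a protein of the central protuberance, scored 291 in the drug list and 1063 in the control list. MRPL32, which is activated by proteolytic cleavage before it joins the ribosome, had the highest drug score of the 60, 481, with 919 in the control list. In both lists that peak was named for the neighbour PSMA2. MRPL34 scored 405 in the drug list and 895 in the control list, and MRPL57, found in mitochondria only, scored 327 in the drug list and 859 in the control list. MRPL45, which lines the exit of the peptide tunnel and ties the ribosome to the inner membrane, scored 248 in the drug list and 605 in the control list. MRPL44, a relative of RNase III, scored 137 in the drug list and 587 in the control list, and MRPL1, the protein of the mobile stalk at the tRNA exit, scored 138 in the drug list and 579 in the control list. MRPL58, a peptidyl-tRNA hydrolase that also rescues stalled ribosomes, had weaker peaks of 85 in the drug list and 258 in the control list. MRPL36, a small protein with a bacterial counterpart, scored 61 in the drug list and 214 in the control list. MRPL41 was the weakest large-subunit gene with a peak in both lists by its control score, with 52 in the drug list and 126 in the control list.

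Among the small-subunit genes, MRPS27, a pentatricopeptide repeat protein, scored 323 in the drug list and 1038 in the control list. In both lists that peak was named for the neighbour PTCD2. MRPS12, the counterpart of the bacterial decoding-centre protein, scored 318 in the drug list and 588 in the control list. MRPS14 scored 339 in the drug list and 882 in the control list, and MRPS17 scored 249 in the drug list and 883 in the control list. MRPS16, MRPS7 and MRPS22 are all linked to inherited mitochondrial disease. MRPS16 scored 135 in the drug list and 685 in the control list. MRPS7 scored 57 in the drug list and 309 in the control list, and MRPS22 scored 44 in the drug list and 204 in the control list. The drug score of MRPS22 was the lowest of the 60. The 3 relatives of bacterial S18 differed widely. MRPS18C scored 276 in the drug list and 917 in the control list, MRPS18B scored 315 in the drug list and 417 in the control list, and MRPS18A, which sits in the large subunit under the systematic name mL66, had no drug peak and a control peak of 138.

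Another 20 genes had peaks in both lists at intermediate or low scores. They were MRPL4, MRPL14, MRPL17, MRPL19, MRPL24, MRPL30, MRPL33, MRPL37, MRPL39, MRPL43, MRPL54, MRPL55, MRPS5, MRPS6, MRPS9, MRPS21, MRPS23, MRPS26, MRPS31 and MRPS35. Their drug scores ran from 48 (MRPS5) to 268 (MRPS23), and their control scores from 230 (MRPS6) to 774 (MRPL55). The order was not the same in both lists. MRPS21 scored 138 in the drug list and 742 in the control list, while MRPL17 scored 217 in the drug list and 431 in the control list.

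**Figure D2:**
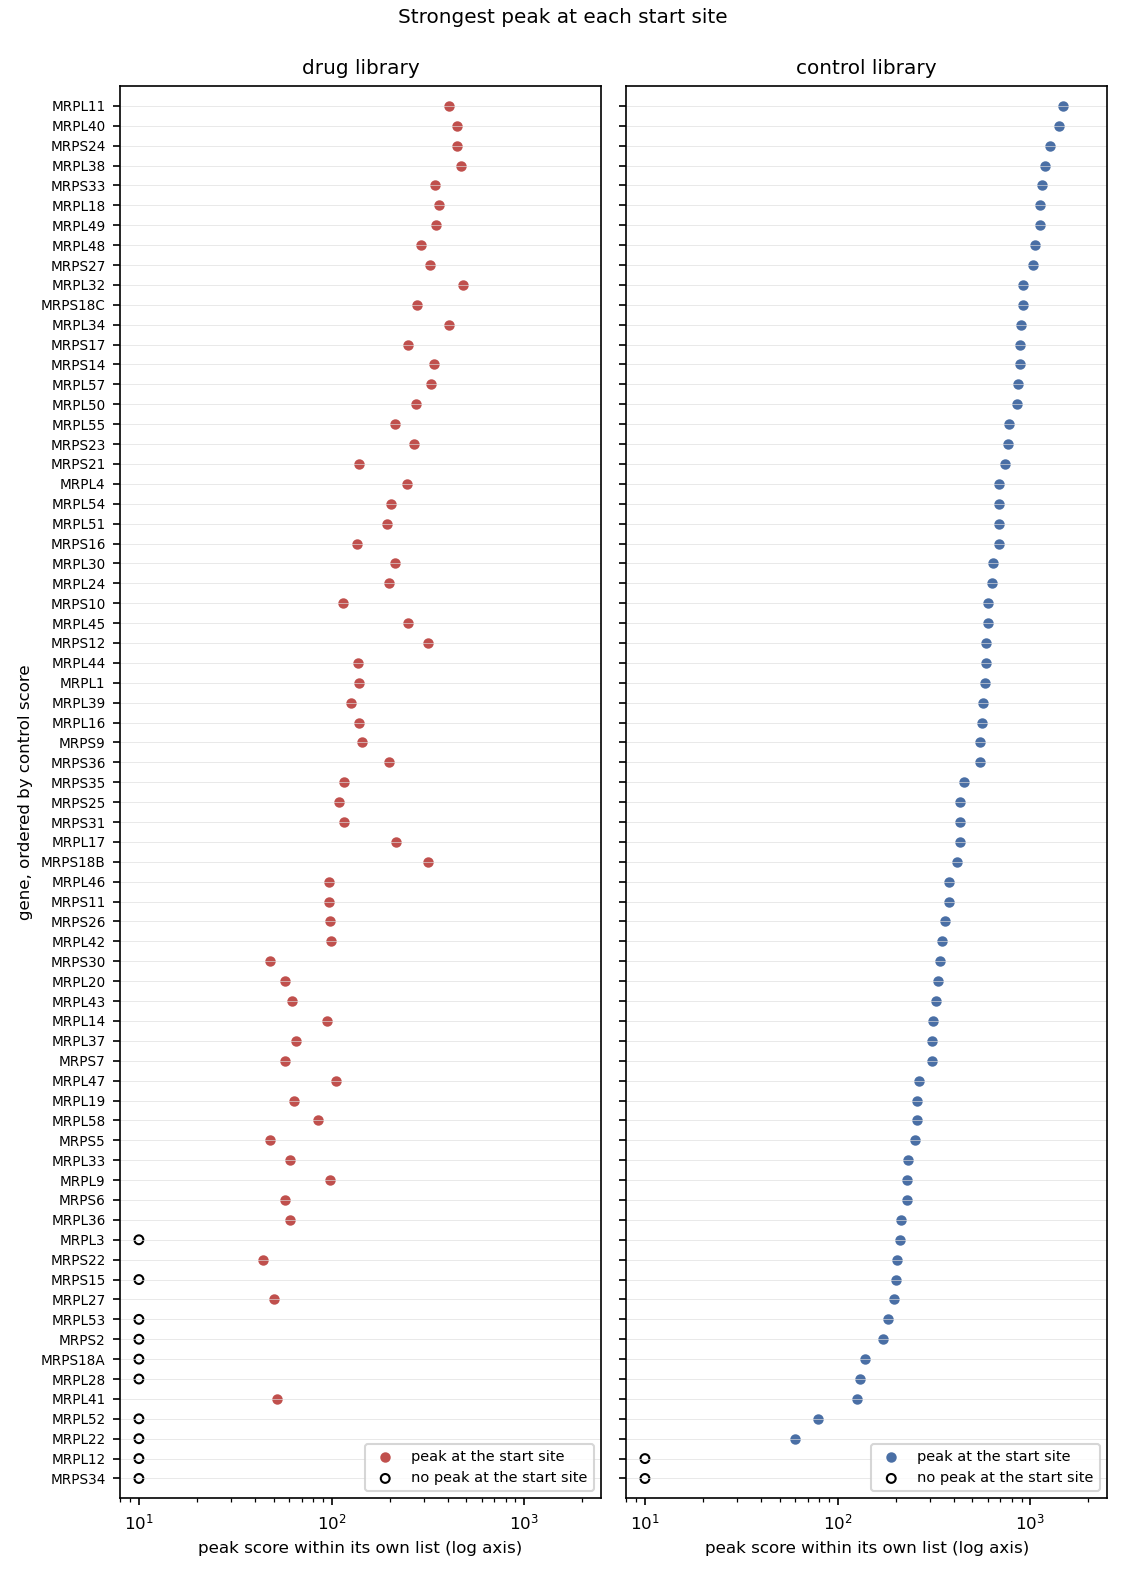
Score of the strongest start-site peak of each of the 70 genes, in the drug list (left, red) and in the control list (right, blue), on log axes, with genes ordered by control score and open circles at the left edge for no peak. Drug scores run from 44 to 481 and control scores from 60 to 1478, and the open circles of the drug list gather at the bottom, among genes with control scores of 60 to 210 and the 2 genes with no control peak.

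The large and small subunits were marked alike in these counts. Systematic names in RefSeq placed 51 of the 78 genes in the large subunit and 24 in the small subunit, and 3 (MRPS24, MRPS28 and MRPS36) had none. Large-subunit windows held a drug peak in 37 of 44 genes, with a median score of 139, and a control peak in 43, with a median of 431. Small-subunit windows held a drug peak in 21 of 24 genes, with a median score of 135, and a control peak in 23, with a median of 451. A split by the first letter of the systematic name, which marks proteins as shared with bacteria or mitochondria-specific, gave similar figures. By that letter MRPS18A (mL66) and MRPS18B (mS40) counted as mitochondria-specific, although they are relatives of bacterial S18. Proteins shared with bacteria had a drug peak in 31 of 37 windows (median score 138) and a control peak in 36 (median 490), and mitochondria-specific proteins had a drug peak in 27 of 31 (median 137) and a control peak in 30 (median 442).

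As a group the start-site peaks were of middling strength for genes with a peak. The median score over the mitochondrial ribosomal protein genes was 138 in the drug list (n = 60), beside 159 over all 7478 protein-coding genes with a drug peak at the start site. In the control list it was 500 (n = 68), beside 439 over 9050 genes. So their median lay below that of all marked genes in the drug list and above it in the control list. Of the 60 genes with both peaks, 4 were placed nearer the top of the drug list than of the control list, namely MRPL32, MRPL34, MRPS12 and MRPS18B. MRPS18B was in the top 8.73% of the drug list and the top 14.6% of the control list, and MRPL32 in the top 3.97% of the drug list and the top 5.50% of the control list. The peaks of MRPS18B and MRPL32 were named for the neighbours PPP1R10 and PSMA2 in both lists. The lists differ in length, so a place in one against the other shows no change by itself. Such places were not compared over all protein-coding genes, so the 4 genes show no trait particular to this group.

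Where both lists had a peak, the drug peak mostly lay inside the control peak, in these genes as in all protein-coding genes. The peaks overlapped in all 60 genes with both, beside 99.2% of 7418 protein-coding genes with both. The drug peak lay wholly inside the control peak in 53 of the 60 (88.3%, interval 77.4 to 95.2), beside 81.2%. It was the narrower one in 58 of the 60 (96.7%, interval 88.5 to 99.6), beside 94.6%. MRPL45 (636 bp in the drug list, 628 bp in the control list) and MRPL48 (750 bp in the drug list, 612 bp in the control list) were the 2 exceptions in width. The median width was 424 bp in the drug list (range 200 to 892) and 628 bp in the control list (range 261 to 1228), beside 494 bp and 721 bp over all protein-coding genes with a start-site peak in the drug and the control list. MRPL20 and MRPS30 had drug peaks of 200 bp, the narrowest width in the drug list at these sites, with control peaks of 560 bp and 396 bp. The peak centre lay a median of 43 bp before the start in the drug list (−43) and 34 bp before it in the control list (−34). It was within 250 bp of the start in 58 of 60 genes in the drug list and 65 of 68 in the control list. Only peaks touching the window were counted, which favours centres near the start, and centres were not measured over all protein-coding genes.

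**Figure D3:**
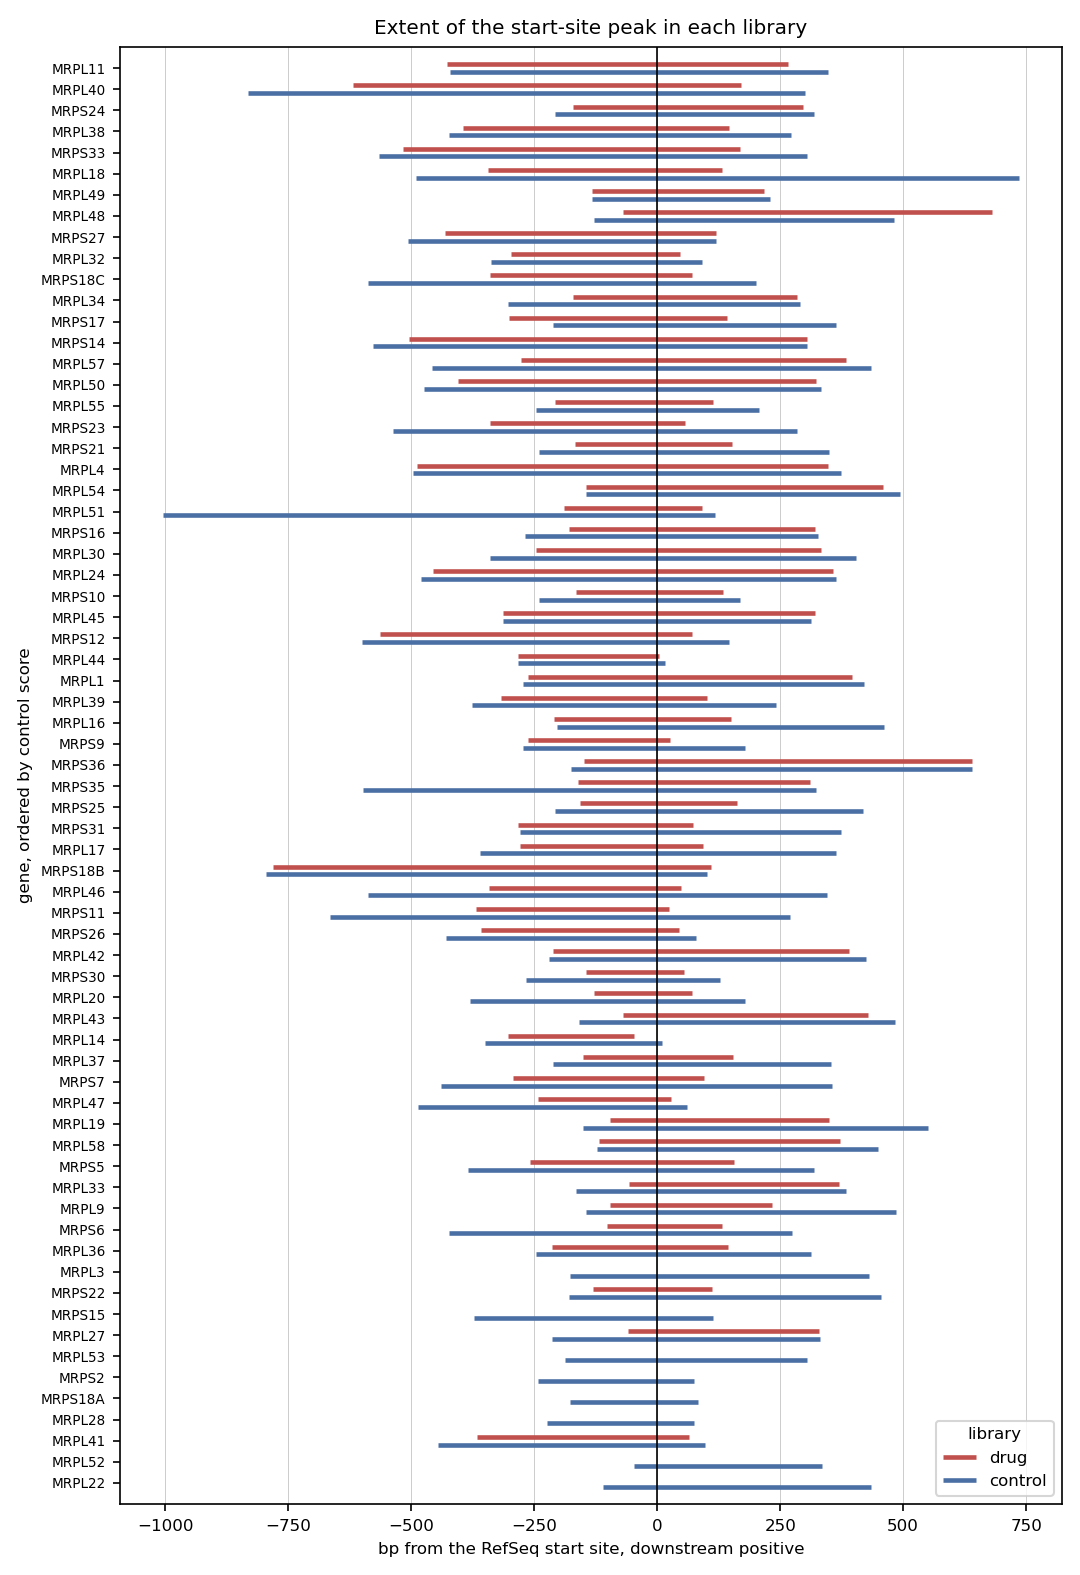
Extent of the strongest start-site peak of each of the 68 genes with a control peak, drawn as a line in bp from the RefSeq start site (vertical line at 0, downstream positive), with drug in red above control in blue and genes ordered by control score. The red line lies within the blue line in 53 of 60 genes, and 8 genes have a blue line alone.

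A control peak without a drug peak at the start site was seen in 8 genes. They were MRPL22 (control score 60), MRPL52 (79), MRPL28 (130), MRPS18A (138), MRPS2 (172), MRPL53 (183), MRPS15 (200) and MRPL3 (210). MRPL3 and MRPL22 are large-subunit proteins with bacterial counterparts, MRPS2 and MRPS15 are small-subunit ones, and MRPL52 and MRPL53 are found in mitochondria only. For 7 of the 8 no drug peak overlapped the control peak at all. For MRPL22 a drug peak 200 bp wide, with a score of 27 and its centre 403 bp past the start, overlapped the control peak outside the window. The nearest drug peak lay 13401 bp from the control promoter peak of MRPS15, 6805 bp from that of MRPL53 and 139933 bp from that of MRPS2.

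The 150 bases before the start of the 3 of these genes with the highest control promoter scores follow, for comparison with the strongest sites above. They come from the same RefSeq build in the same notation, with motif matches in capitals.
MRPS15 (chr1:36464385-36464534, minus strand): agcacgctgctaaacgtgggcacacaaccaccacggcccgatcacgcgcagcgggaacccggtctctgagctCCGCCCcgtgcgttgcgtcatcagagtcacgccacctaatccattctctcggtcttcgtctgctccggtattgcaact
MRPL53 (chr2:74472681-74472830, minus strand): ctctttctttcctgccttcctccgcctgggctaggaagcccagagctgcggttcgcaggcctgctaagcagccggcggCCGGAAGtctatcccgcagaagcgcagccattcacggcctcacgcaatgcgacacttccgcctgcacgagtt
MRPS2 (chr9:135500532-135500681, plus strand): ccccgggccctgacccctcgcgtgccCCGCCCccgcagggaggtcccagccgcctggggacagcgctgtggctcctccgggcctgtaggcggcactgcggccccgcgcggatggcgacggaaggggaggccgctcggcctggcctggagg
MRPS15 held an SP1 match 78 bp before the start, MRPL53 an ETS match at 72 bp and MRPS2 an SP1 match at 124 bp. The same 2 motifs thus occurred on both sides of the comparison.

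All 8 had weak control peaks for this group. Every gene with a window and a control score of 214 or more had a drug peak, and 210 was the highest control score without one. Of the 11 genes with control scores of 60 to 210, 3 had a drug peak (MRPL41 at 126, MRPL27 at 195 and MRPS22 at 204), beside 925 of 1913 protein-coding genes in that range (48.4%). All marked genes were then split by control score into 4 groups of nearly equal size. The mitochondrial ribosomal protein genes had a drug peak in 2 of 9 for scores of 17 to 202, beside 40.6% of 2265 genes. They had one in 23 of 24 for scores of 203 to 439, beside 89.2% of genes, in 20 of 20 for 440 to 855, beside 98.8%, and in 15 of 15 for 856 to 6344, beside 99.3%. The drug peaks were thus missing where control peaks were weak, in these genes as in all protein-coding genes.

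**Figure D4:**
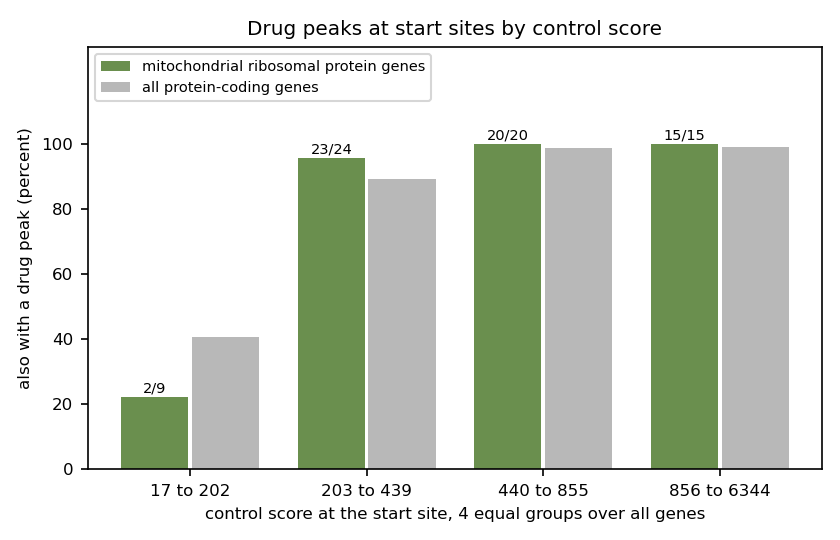
Percent of genes with a control start-site peak that also have a drug peak, in 4 groups by control score over all protein-coding genes, for the mitochondrial ribosomal protein genes (green, counts above the bars) and all protein-coding genes (grey). The lowest group has 2 of 9 against 40.6%, and the 3 higher groups have 23 of 24, 20 of 20 and 15 of 15 against 89.2%, 98.8% and 99.3%.

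MRPL10, which has no window, stood outside this order. It encodes the protein that anchors the MRPL12 stalk to the large subunit. Its control promoter peak was 439 bp wide with a score of 317, in the top 18.6% of the control list. No drug peak overlapped it, and the nearest one, scoring 22 and named for LRRC46, was 1484 bp away. Of the 4484 protein-coding genes with a control promoter score at least as high, 22 (0.491%) had no overlapping drug peak. MRPL12 itself, the stalk protein that contacts the translation factors, had a control promoter peak of 105 centred 803 bp before its start (−803), outside the window, and no drug promoter peak. MRPL11, MRPL10 and MRPL12 build the same stalk region, and of these 3 MRPL11 alone had a drug peak at its start or promoter.

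Many of these genes share their start region with a neighbour, which matters for how peaks were named. Another gene with a window started within 1 kb on the opposite strand for 30 of the 70 genes (42.9%), beside 25.9% of 15843 protein-coding genes. For 22 of the 30 that neighbour was protein-coding. Neighbours without a window were not searched, so both shares can be too low. The 30 genes with such a neighbour had a drug peak in 27, with a median score of 203, and a control peak in 29, with a median of 639. The other 40 had a drug peak in 33, with a median of 126, and a control peak in 39, with a median of 431. The same direction was seen over all protein-coding genes, where 71.3% of 4109 genes with such a neighbour had a drug peak and 81% had a control peak, against 38.8% and 48.8% of the 11734 without. Neighbours included HIRA (812 bp from MRPL40), the chaperonin gene TCP1 (210 bp from MRPL18), FAU, which encodes a cytosolic ribosomal protein (49 bp from MRPL49), the proteasome gene PSMA2 (202 bp from MRPL32) and SARS2, the mitochondrial seryl-tRNA synthetase (181 bp from MRPS12). MRPS11 and MRPL46, a small-subunit and a large-subunit gene, start 320 bp apart and shared 1 peak, scoring 97 in the drug list and 378 in the control list. A peak between paired genes cannot be assigned to either of them from these lists.

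In some genes the start-site peak carried another gene's name. It bore the symbol of the mitochondrial ribosomal protein gene itself in 54 of 60 cases in the drug list and 60 of 68 in the control list, and another symbol in 6 in the drug list and 8 in the control list. MRPL9, MRPL47 and MRPS18B, which had no peak named for them, had start-site peaks named OAZ3, NDUFB5 and PPP1R10. OAZ3 and PPP1R10 are neighbours that start within 1 kb on the opposite strand. No such neighbour was found for MRPL47, but only starts with a window were searched. By the authors' annotation its peak was centred 34 bp before the NDUFB5 start in the drug list (−34). In the control list the centre was 65 bp past the NDUFB5 start. MRPL9 scored 98 in the drug list and 230 in the control list, and MRPL47 scored 106 in the drug list and 265 in the control list. The peak also fell outside the promoter class in 6 genes in the drug list and 13 in the control list, in an exon, intron or untranslated class. A count of promoter-class names therefore missed marked genes in both lists. Other names and other classes at start sites were not counted over all protein-coding genes, so these counts show no trait particular to this group.

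Peaks far from the start were mostly weaker than those at start sites. More than 1 kb from the start, 40 peaks in 25 genes were named in the drug list, with a median score of 40, and 67 peaks in 37 genes in the control list, with a median of 79. Control peaks overlapped 22 of the 40 drug peaks (55.0%, interval 38.5 to 70.7), beside 53.3% of 12449 such peaks of all protein-coding genes. Drug peaks overlapped 22 of the 67 control peaks (32.8%, interval 21.8 to 45.4), beside 25.7% of 25303. Overlapped peaks had a median score of 72.5 in the drug list and 226 in the control list, and those without overlap had medians of 27 in the drug list and 53 in the control list. Of the 18 drug peaks without overlap, 14 were 200 bp wide and 4 lay in Alu repeats, against 8 and 0 of the 45 such control peaks. Widths and Alu repeats were not counted over all protein-coding genes, so these counts show no trait particular to this group.

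The strongest peak in each list lay far from a start. In the drug list the strongest peak named for any of these genes lay in a CpG island in an intron of MRPS27, 11922 bp past its start (chr5:72308011-72308625, hg38), with a score of 720, against 1105 for the control peak there. In the control list the strongest lay in a CpG island 8286 bp before the start of MRPL48 (chr11:73779175-73780001, hg38), with a score of 2059, against 685 for the drug peak there. MRPS10 had a peak in the untranslated end of a neighbouring gene, scoring 158 in the drug list and 715 in the control list, and MRPS18A had an intergenic one that scored 208 in the drug list and 632 in the control list. Whether these peaks belong to the genes whose names they carry was not tested.

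The start-site windows were searched on both strands for 6 short motifs, those of factors known to act at housekeeping promoters and the TATA box. The letters were CCGGAAG for the ETS family, which includes GABPA, the regulator of many nuclear genes for mitochondrial proteins, GCGCNTGCG for NRF1, another such regulator, AAGATGGC for YY1, GGGCGG for SP1, CCAAT for NFY and TATAAA for the TATA box. Matches of different motifs shared letters in 1 window, an ETS match with an SP1 match. A match is only a stretch of letters, and none of these factors was measured.

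YY1 and ETS letters were the most frequent relative to other promoters. YY1 letters were in the windows of 21 of the 70 genes (30.0%), beside 7.18% of the 9050 protein-coding genes marked in control and 4.66% of all 15843. ETS letters were in 30 of 70 (42.9%), beside 25.0% of marked genes and 16.5% of all. NRF1 letters were in 12 of 70 (17.1%), beside 19.2% and 12.5%. SP1 letters were in 43 of 70 (61.4%), beside 78.6% and 64.3%, and NFY letters in 23 of 70 (32.9%), beside 45.6% and 42.1%. TATA letters were in 4 of 70 (5.71%), beside 8.06% and 12.4%. The median GC content was 59.7% in the mitochondrial ribosomal protein windows, beside 64.8% in those of marked genes and 62.3% in all. ETS, NRF1 or YY1 letters occurred in 48 of the 70 genes, beside 43.4% of marked genes and 28.9% of all.

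**Figure D5:**
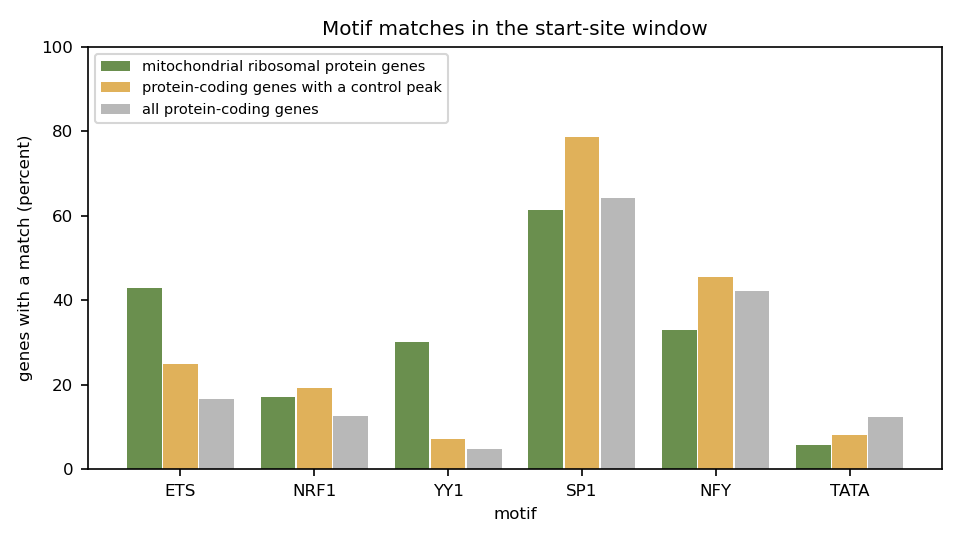
Percent of start-site windows with a match to each of 6 motifs, for the 70 mitochondrial ribosomal protein genes (green), the 9050 protein-coding genes with a control peak (orange) and all 15843 protein-coding genes (grey). Of the 3 bars the green one is the highest for ETS (42.9%) and YY1 (30.0%) and the lowest for SP1 (61.4%), NFY (32.9%) and TATA (5.71%).

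The motifs differed in where they lay, with matches counted in every window. The 24 YY1 matches had a median position 13 bp past the start, with 16 of them past it, and the 45 ETS matches a median of 22 bp before it (−22), with 6 past it. The 112 SP1 matches had a median of 104 bp before the start (−104) and the 44 NFY matches a median of 83 bp before it (−83). The YY1 letters contain ATG, and whether matches past the start fall at translation start codons was not tested. The YY1 letters of 5 genes are printed as examples, chosen after their values had been seen. They are the genes with the highest control start-site scores among those with a match. Only the first match in the window whose start was nearest the control peak was used, if the 30 bases fell within it. Each stretch is 30 bases of RefSeq GRCh38.p14, read 5′ to 3′ along the gene, with the YY1 letters in capitals.
MRPS24 (chr7:43869480-43869509, minus strand): ccgcttggcccAAGATGGCggcctccgtgt
MRPL38 (chr17:75904860-75904889, minus strand): aggccggagggAAGATGGCggcgccctggt
MRPS27 (chr5:72320206-72320235, minus strand): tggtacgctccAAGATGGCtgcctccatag
MRPL32 (chr7:42932143-42932172, plus strand): acccgcgctccGCCATCTTtacccgaagag
MRPL50 (chr9:101398577-101398606, minus strand): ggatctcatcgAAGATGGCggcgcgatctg
The match began 19 bp past the start in MRPS24, 6 bp in MRPL38, 16 bp in MRPS27 and 23 bp in MRPL50, and in these 4 it ran along the gene. In MRPL32 it lay on the opposite strand, 222 bp before the start (−222), beyond the start of PSMA2 on that strand.

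Every motif occurred among the genes without a drug peak. Among the 8 genes marked in control alone, 5 had ETS letters, 3 had YY1 letters, 1 had NRF1 letters, 5 had SP1 letters, 2 had NFY letters and 1 had TATA letters. With 8 genes, such counts describe these windows and nothing more.

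Most genes with a window in short lists of genes that work beside the mitochondrial ribosome also had start-site peaks. Over all protein-coding genes 47.2% of windows held a drug peak and 57.1% a control peak. The 5 subunits under other names all had start-site peaks in both lists, among them DAP3, the GTP-binding small-subunit protein (616 in the drug list, 1491 in the control list), PTCD3 (308 in the drug list, 990 in the control list) and the weaker CHCHD1 (64 in the drug list, 94 in the control list). Of 16 translation factor windows, 15 held a drug peak and 16 a control peak, with LRPPRC, a stabiliser of mitochondrial messenger RNA, at 507 in the drug list and 1428 in the control list. MTRF1L, a release factor, scored 518 in the drug list and 1356 in the control list, and MTRF1 had a control peak of 35 alone. Of 16 aminoacyl-tRNA synthetase windows, 15 held a drug peak and 16 a control peak. CARS2, the cysteinyl-tRNA synthetase, scored 1046 in the drug list and 3506 in the control list, EARS2 scored 554 in the drug list and 1561 in the control list, and MARS2 had a control peak of 255 alone.

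Of 22 windows of ribosome assembly and rRNA modification genes, 19 held a drug peak and 21 a control peak. TFB1M, the rRNA dimethyltransferase, scored 514 in the drug list and 1389 in the control list, and METTL15 scored 313 in the drug list and 1196 in the control list. DDX28 (79) and RBFA (67) had control peaks alone, and MRM2 had neither. All 6 genes of mitochondrial DNA transcription had both, led by TFB2M (559 in the drug list, 1778 in the control list) and MTERF2 (279 in the drug list, 955 in the control list). Of 7 windows of regulators of nuclear mitochondrial genes, 5 held a drug peak and 6 a control peak. GABPA scored 533 in the drug list and 1633 in the control list, PPRC1 scored 317 in the drug list and 1225 in the control list, PPARGC1A had a control peak of 63 alone, and PPARGC1B had none. In these lists the genes marked in control alone had control scores from 35 to 255. MARS2, at 255, lay above 210, the highest such score among the mitochondrial ribosomal protein genes with a window. Some genes with lower control scores than MARS2, such as CHCHD1 (94) and MRM1 (137), had a drug peak.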

How the data were processed

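CUT&Tag was measured in 1 drug library and 1 control library, assigned by their titles. Peaks were called per library in a MACS2 narrow peak file and annotated with HOMER against hg38, per the file headers. The sources used here do not give aligner, versions, thresholds or any control used in calling. The deposited value is the authors' score of each peak, by the convention of MACS2 10 times the −log10 q-value. It was not scaled between libraries, grows with depth and peak width, and was used within its own list. In the control list 1 line was empty as used here.

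Overlap meant at least 1 bp, with 1-based hg38 coordinates. Start sites came from RefSeq GRCh38.p14 windows, and 70 of 78 genes matched by symbol. Neighbours were taken from the RefSeq start-site windows, so a gene without a window could not be found as a neighbour. Subunits were taken from systematic synonyms in the RefSeq gene table. Shares carry exact Clopper-Pearson 95% intervals. Computations used Python 3.11.15, pandas 2.3.3, NumPy 2.4.6 and SciPy 1.17.1, and the overlap code was tested on simulated intervals.

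The genes and lists were chosen with earlier results of these data known. Named genes were the 10 with the highest control promoter score, the 5 lowest with drug overlap, all without overlap, all named in 1 list, and for each further list the 2 highest and all without drug overlap. Genes with peaks outside the promoter class were given mostly as counts, and further genes were named for their roles after their values were seen. Alternatives were a score of at least 50, lists cut to equal length, peaks within 1000 bp, windows of 500 and 1000 bp, other overlap rules, merging within 200 bp and, added later, leaving out MRPS36.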

Additional observations from a re-analysis of the deposited data

How the results depend on the processing

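All 36 alternatives stayed within 1.5 times the counts of the report. That is a loose bound, since start-site counts of 60 and 68 of 70 could not rise by such a factor. Genes with a named promoter peak in the control list were 51 of 78 in the report and 69 of 78 with any annotation class. In the drug list they were 50 of 78 and 63 of 78. Control promoter genes overlapped by a drug peak numbered 44 of 51 in the report, 40 of 51 with scores of at least 50, 42 of 51 by peak midpoint and 56 of 65 with peaks within 1000 bp of the start. Drug promoter genes overlapped by a control peak were 46 of 46 to 58 of 58, and 44 of 50 by name. Start-site windows held a drug peak in 57 to 61 of 70 genes, and a control peak in 67 to 69 of 70. Without MRPS36, a choice made after seeing the data, the counts were 59 of 69 in the drug list and 67 of 69 in the control list. No paired analysis was possible because each group held 1 library and nothing pairs them beyond the number 1. For the same reason no replicate could be left out. The depth of both libraries is unknown, and a deeper library passes a given score at weaker sites and over wider stretches. The part of depth in the missing and the narrower drug peaks was not tested.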

Other observations

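Some peaks were named for pseudogenes of the mitochondrial ribosomal protein genes. The drug list named 6 peaks for them and the control list 11, and in each list 4 of these overlapped a peak of the other. The strongest was at MRPL45P2, in a non-coding exon, with a score of 350 in the drug list and 1025 in the control list. MRPS31P5 had a promoter-class peak scoring 232 in the drug list and 511 in the control list. Reads from a copy and its parent gene can be assigned to either, so these values are uncertain. Peaks and overlaps were not counted over all pseudogenes, so these counts show no trait particular to this group. The lists held 0 peaks on mitochondrial DNA, in the drug and in the control list alike.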
